A study of Mus musculus with 6 samples.

Results

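Iron in the spinal cord is held, moved and sensed by a small set of proteins, and the RNA of 10 genes that encode them was followed here in mice lacking SOX2 in astrocytes. The genes were those that store iron (Fth1 and Ftl1), bring it into cells (Trf, Tfrc and Slc11a2), carry or oxidize it on the way out (Slc40a1, Cp and Heph) and sense it (Aco1 and Ireb2). They were found by symbol, and all 10 were among the 35275 genes of the deposited tables. Bulk RNA-seq was done on spinal cord from 3 Sox2 cKO mice, which carried mGfap-Cre and 2 floxed Sox2 alleles, and from 3 Ctrl mice, all of strain C57BL/6. The sample labels call the Ctrl mice mGfap-Cre with wild-type Sox2, whereas the study's methods describe littermates with floxed Sox2 and no Cre, so it cannot be told whether the controls also carried Cre. The labels give an age of 90 days and the extraction protocol 80 days. Each group held mice of both sexes, which were not told apart here. Cre was driven by the mouse Gfap promoter, which is active in astrocytes, so most cell types of the tissue were not meant to lose Sox2.

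Ferritin, a shell built of heavy (Fth1) and light (Ftl1) subunits, keeps iron in a safe form inside the cell. Iron bound to transferrin (Trf) enters through the transferrin receptor (Tfrc) and leaves the endosome through DMT1 (Slc11a2). Ferroportin (Slc40a1) is the known exporter of iron, and the copper ferroxidases ceruloplasmin (Cp) and hephaestin (Heph) oxidize iron as it leaves. In the central nervous system, oligodendrocytes are known as iron-rich cells that make transferrin, and astrocytes carry a membrane-bound form of ceruloplasmin. The iron regulatory proteins IRP1 (Aco1) and IRP2 (Ireb2) bind a stem-loop called the iron-responsive element when iron is scarce. Binding before the coding part holds back translation, and binding after it protects the RNA from decay. Much of this control therefore acts on translation, which RNA levels do not show.

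These elements are printed first because they are a sequence feature that some of the members share. Annotated transcripts (GENCODE M21, build GRCm38, the build of mm10) were searched for the loop CAGTGN between stems of 5 paired bases, with G:U pairs allowed and a C before the 5′ stem. A match was found in 4 of the 10 members and in 294 of 21901 coding genes, or 1.34%. Each site is written 5′ to 3′ on the RNA strand with the bases of the loop in capitals.
Fth1 before the coding part, chr19:9982732-9982761 (+): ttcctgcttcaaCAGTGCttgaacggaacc
Ftl1 before the coding part, chr7:45459778-45459807 (-): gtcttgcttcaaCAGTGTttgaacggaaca
Slc40a1 before the coding part, chr1:45925464-45925493 (-): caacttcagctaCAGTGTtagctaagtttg
Tfrc after the coding part, chr16:32631219-32631248 (+): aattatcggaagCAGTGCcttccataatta
Tfrc after the coding part, chr16:32631598-32631627 (+): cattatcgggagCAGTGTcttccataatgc
Tfrc after the coding part, chr16:32631663-32631692 (+): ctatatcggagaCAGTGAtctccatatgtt
Tfrc after the coding part, chr16:32631710-32631739 (+): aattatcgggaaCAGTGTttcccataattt
A match before the coding part was found in 31 of the coding genes (0.142%), 3 of them members, and a match after it in 129 (0.589%). Tfrc held 4 matches and each of the other 3 members held 1. Trf, Slc11a2, Cp, Heph, Aco1 and Ireb2 held no match to these letters, which says nothing of elements of another form. Among 65 further genes of iron and heme handling, Alas2 had a match before and Bola3 a match after the coding part.

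The libraries held 21507911 to 28392184 counts on genes, and 16137 genes passed the filter on low counts, including all 10 members. Sox2 itself was at 19.9, 14.8 and 29.5 CPM (counts scaled to library size with TMM factors) in Ctrl libraries 2, 4 and 6 and at 3.16, 2.69 and 2.98 CPM in Sox2 cKO libraries 1, 3 and 5. Its log2 fold change was -2.86 ± 0.24 (SE, n = 3 per group, edgeR adjusted p = 0.000956). Ctrl library 2 stood apart from the other Ctrl libraries: on the first principal component, with 53.6% of the variance, it lay at -3.97, while the other Ctrl libraries lay at -31.1 and -42.7 and the Sox2 cKO libraries between 15.4 and 38.6. Without it, edgeR called 6119 genes in place of 3970. Fold changes also followed gene length, with a Spearman correlation across genes of -0.48 (16137 genes, which are not independent). The median log2 fold change was 0.37 over the 1184 genes of up to 1000 bases and -0.37 over the 735 genes above 8000 bases. Because the ferritin genes are short, every fold change below is also given after a correction for length where that changes its reading. Astrocyte markers fell in part, with 6 of 14 lower by edgeR, against 12.4% of all genes tested, and 1 higher. With the length correction 4 were lower and 0 higher, while 13.1% of all genes were called in either direction. The summed level of the astrocyte markers was 10984 to 13174 CPM in Ctrl and 8596 to 9013 CPM in Sox2 cKO. In bulk tissue, fewer cells of a type and less RNA per cell cannot be told apart. Among cell types not named below, edgeR called 1 of 10 microglia markers (DESeq2 3), 0 of 5 border macrophage markers (DESeq2 0, and 1 with an unadjusted edgeR p under 0.05), 1 of 9 endothelial markers (DESeq2 1), 1 of 9 neuron markers (DESeq2 3) and 1 of 6 ependymal markers (DESeq2 1). The share called by edgeR among all genes tested was 24.6%.

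Of the 10 members, 1 rose and 1 fell in Sox2 cKO. Ftl1 was 1.43-fold higher and Heph was at 0.708 of its Ctrl level, and the other 8 members did not pass the test. Over all genes tested, edgeR called 24.6% (adjusted p under 0.05), 12.2% higher and 12.4% lower, so 2 of 10 members lay near the background. The median log2 fold change was 0.13 over the members and 0.02 over all genes tested. With the length correction 13.1% of all genes and 1 of the 10 members, Heph, were called.

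**Figure D1:**
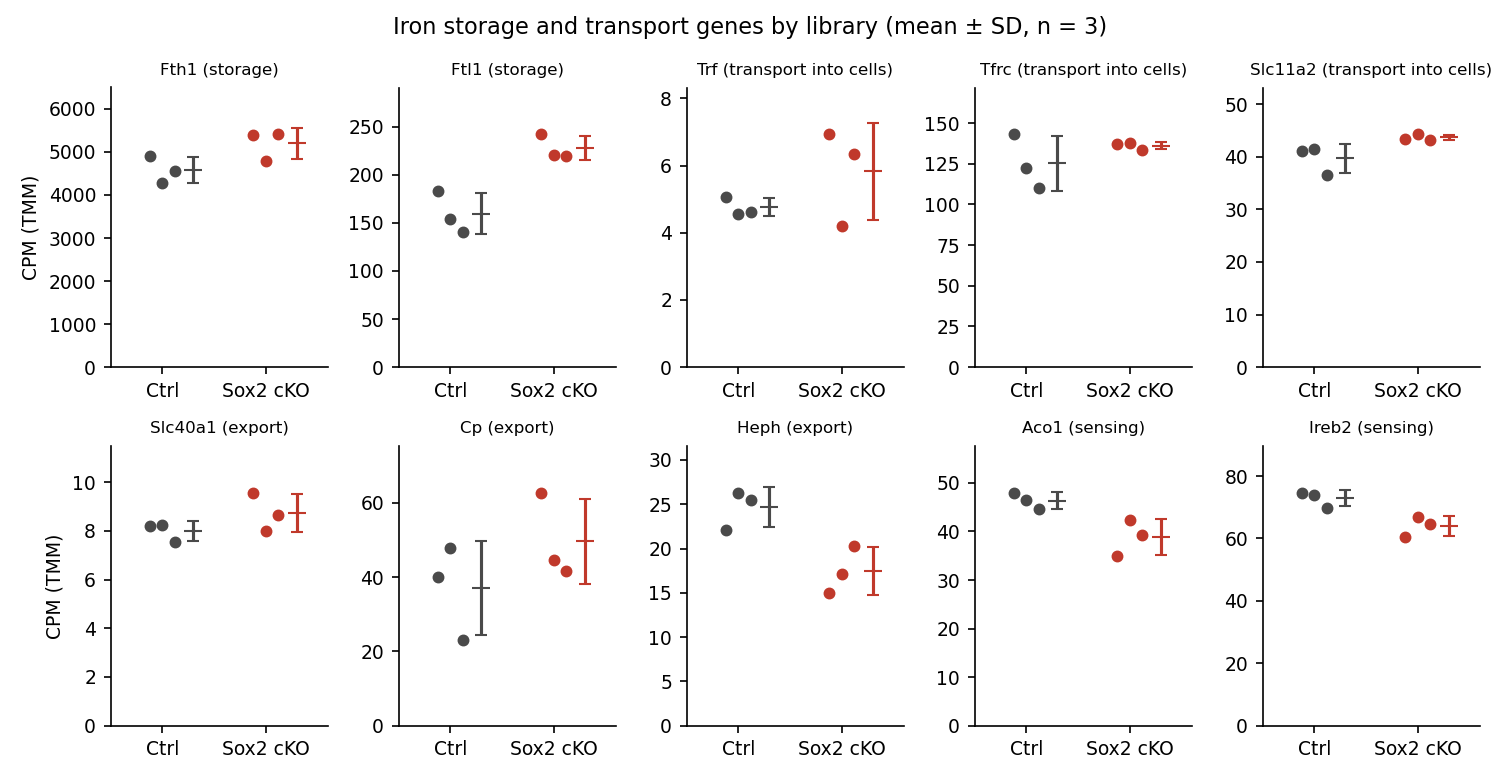
TMM-scaled CPM of the 10 genes, each point 1 library (3 Ctrl in grey, 3 Sox2 cKO in red), with the mean and SD of each group beside the points and every axis starting at 0. The groups are apart for Ftl1 and Slc11a2 (Sox2 cKO higher) and for Heph, Aco1 and Ireb2 (Sox2 cKO lower), and they overlap for the other 5 genes.

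The groups did not overlap in CPM for 5 members. Ftl1 and Slc11a2 lay higher in every Sox2 cKO library, as 22.6% of all genes tested did, and Heph, Aco1 and Ireb2 lay lower, as 22.1% did. This depended on the scale, since in the deposited FPKM the groups overlapped for Aco1 and Ireb2 and did not for Fth1 and Slc40a1, which lay higher in Sox2 cKO, while Ftl1, Slc11a2 and Heph were apart on both scales.

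The storage genes stood far above the rest in level. In FPKM, which divides by gene length and so allows levels of genes to be compared, Fth1 was at 5111 ± 456 in Ctrl and 6209 ± 449 in Sox2 cKO (SD, n = 3). Its level was above that of 99.98% of the genes with a count. Ftl1 followed at 159.6 ± 26.0 FPKM in Ctrl and 243 ± 19 in Sox2 cKO, so that Fth1 was 32.0 times Ftl1 in Ctrl and 25.5 times Ftl1 in Sox2 cKO. Of the 50-base windows of the Ftl1 transcript, 78.9% also occur in transcripts of other genes, among them Ftl1 pseudogenes, against 6.59% for Fth1. Reads that map to several genes are usually left out by this kind of counting, and its settings are not given in the sources used here. Their part in the gap between both genes was not tested.

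Tfrc came next in both groups, at 24.8 ± 4.0 FPKM in Ctrl and 28.8 ± 1.0 in Sox2 cKO. Below it lay Ireb2 (12.1 in Ctrl and 11.4 in Sox2 cKO), Aco1 (11.7 and 10.5), Slc11a2 (8.70 and 10.2), Cp (7.85 and 11.3) and Heph (5.01 and 3.79). In Ctrl, the ranges of neighbours in this order overlapped for Ireb2 with Aco1, Slc11a2 with Cp and Cp with Heph. In Sox2 cKO, Cp lay between Ireb2 and Aco1, and the ranges of Ireb2, Cp, Aco1 and Slc11a2 overlapped from each to the next. Slc40a1 (1.97 and 2.31) and Trf (1.79 and 2.35) were the lowest in both groups, and their ranges overlapped in both.

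**Figure D2:**
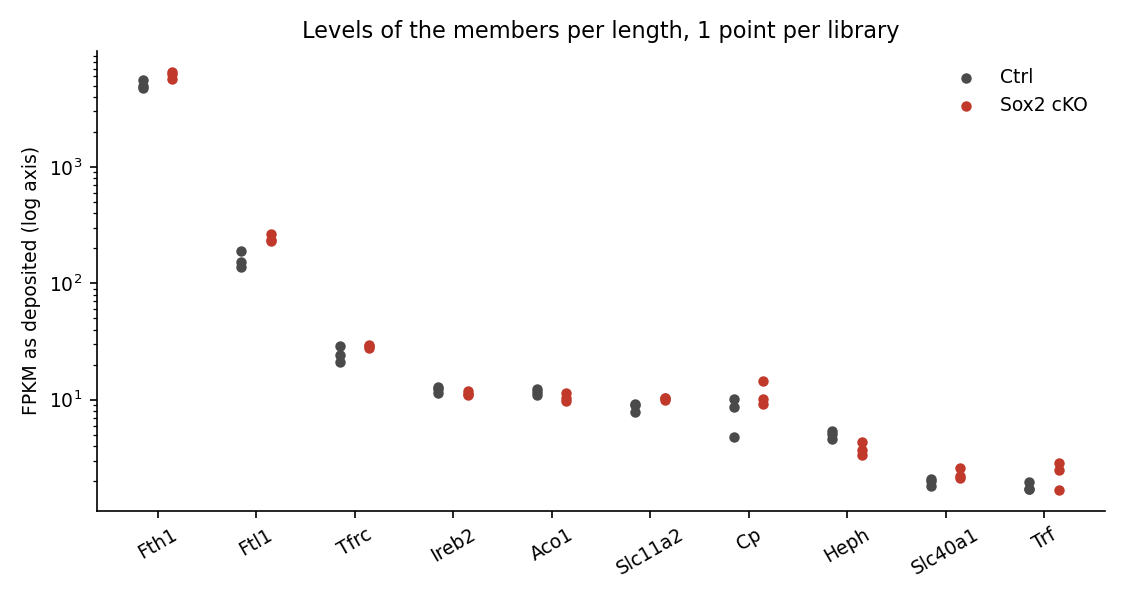
Deposited FPKM of the 10 genes on a log axis, each point 1 library (Ctrl grey, Sox2 cKO red), with the genes ordered by their Ctrl mean. Fth1 lies between 4753 and 6590 FPKM, Ftl1 between 137 and 265, and Trf and Slc40a1 below 3.

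The low level of Trf goes against the large amount of transferrin RNA that oligodendrocytes are known for, while oligodendrocyte markers were abundant (Mbp, a myelin protein, was at 12171 to 15330 CPM). Another annotated protein-coding gene on the same strand, Gm20425, shares 2108 of the 3320 exonic bases of Trf (63.5%), and it was listed at 0 counts in all 6 libraries. Reads that fall on both genes can be left out by such counting, so that only the 1212 unshared bases would count towards Trf, while its FPKM was made with a length of 2571 bases. The part of this overlap in the Trf level was not tested.

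Fth1, the heavy subunit with the ferroxidase centre, was at 4905, 4280 and 4554 CPM in Ctrl libraries 2, 4 and 6 and at 5391, 4792 and 5414 CPM in Sox2 cKO libraries 1, 3 and 5. Its groups overlapped in CPM through Sox2 cKO library 3 and Ctrl library 2, and in FPKM they were apart (at most 5625 in Ctrl and at least 5713 in Sox2 cKO). Fth1 had a log2 fold change of 0.18 ± 0.09 (SE, n = 3 per group, edgeR adjusted p = 0.176). With the length correction it was -0.18 ± 0.07 (edgeR adjusted p = 0.113), so the sign depended on that correction. Without Ctrl library 2 the log2 fold change of Fth1 was 0.23 (edgeR adjusted p = 0.0566), and DESeq2 without that library gave 0.22 (adjusted p = 0.0195).

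Ftl1, the light subunit that helps iron to be laid down in the core of the shell, was at 183, 154 and 141 CPM in Ctrl and at 242, 221 and 219.9 CPM in Sox2 cKO. The lowest Sox2 cKO library lay above the highest Ctrl library. Its log2 fold change was 0.51 ± 0.10 (SE, n = 3 per group, edgeR adjusted p = 0.0137), and DESeq2 gave 0.50 (adjusted p = 0.000127). With the length correction it was 0.16 ± 0.07 and was no longer called (edgeR adjusted p = 0.148). The call was also lost in edgeR without Ctrl library 4 (adjusted p = 0.0689) or Sox2 cKO library 1 (adjusted p = 0.0667), and DESeq2 kept it whichever single library was left out. Adding the 75 reads of the 3 other rows named as light chain genes left the log2 fold change at 0.51. Beside the 28521 reads of Ftl1 so few could hardly move it, and reads left out for mapping to several genes are not covered.

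The balance of both subunits does not depend on scaling, because it is a ratio within each library. The log2 ratio of Fth1 to Ftl1 counts was 4.74, 4.79 and 5.01 in Ctrl and 4.48, 4.44 and 4.62 in Sox2 cKO. Every Sox2 cKO library lay below every Ctrl library, and the means differed by -0.34 (4.85 ± 0.14 against 4.51 ± 0.10, SD, n = 3, exact two-sided permutation test p = 0.1, the smallest that 3 against 3 allows). Both transcripts are short, at 866 bases for Fth1 and 968 bases for Ftl1 as used for FPKM.

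**Figure D3:**
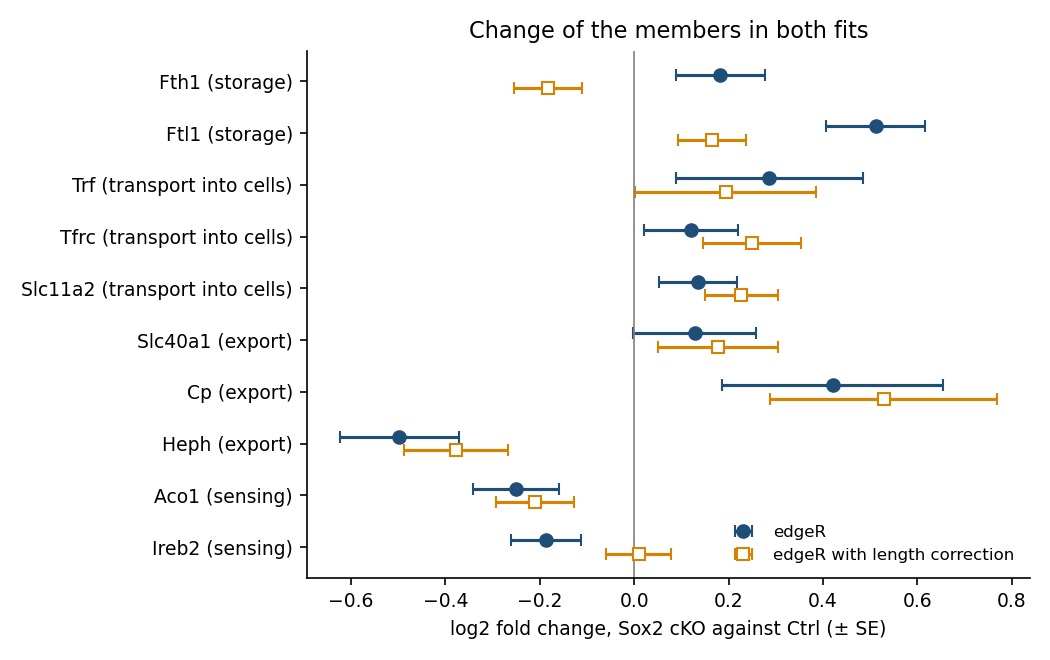
Log2 fold change of the 10 genes in Sox2 cKO against Ctrl with its SE, from edgeR (filled circles) and from edgeR with the length correction (open squares). Heph lies below 0 and Cp above 0 in both, Ftl1 falls from 0.51 to 0.16, and Fth1 and Ireb2 change sign.

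Among the genes that bring iron into cells, 0 of 3 members passed the test in edgeR or DESeq2, or had an unadjusted edgeR p under 0.05. Tfrc, the receptor that takes up transferrin, was at 143, 122 and 110.1 CPM in Ctrl and at 137, 138 and 134 CPM in Sox2 cKO. All 3 Sox2 cKO libraries lay within the range of Ctrl. Its log2 fold change was 0.12 ± 0.10 (SE, n = 3 per group, edgeR adjusted p = 0.394) and 0.25 ± 0.10 with the length correction (edgeR adjusted p = 0.127). Without Ctrl library 2, the highest library of all 6, it was 0.23 and passed the test in edgeR (adjusted p = 0.0379) and in DESeq2 (adjusted p = 0.0413). Without Ctrl library 6, the lowest, it was 0.04 (edgeR adjusted p = 0.834) and 0.02 in DESeq2 (adjusted p = 0.921).

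IRP activity is known to act on Tfrc RNA and on ferritin translation in opposite ways, and for this reason the receptor was set against the heavy subunit. The log2 ratio of Tfrc to Fth1 counts was -5.10, -5.13 and -5.37 in Ctrl and -5.30, -5.12 and -5.34 in Sox2 cKO. The groups overlapped, and their means differed by -0.05 (-5.20 ± 0.15 against -5.25 ± 0.12, SD, n = 3, exact two-sided permutation test p = 0.9). A test of 3 libraries against 3 cannot give a p below 0.1. The ratio is not corrected for length, and Tfrc (4890 bases) is far longer than Fth1 (866 bases). With the length correction the log2 fold change was 0.25 for Tfrc and -0.18 for Fth1. The small difference therefore holds for uncorrected counts, and a corrected ratio was not tested.

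Slc11a2, the endosomal iron transporter, was at 41.1, 41.6 and 36.6 CPM in Ctrl and at 43.4, 44.3 and 43.3 CPM in Sox2 cKO. The groups did not overlap, but the gap between them was small. The log2 fold change was 0.14 ± 0.08 (SE, n = 3 per group, edgeR adjusted p = 0.251), and with the length correction it was 0.23 ± 0.08 (edgeR adjusted p = 0.0742). It was 0.08 without Ctrl library 6. Trf, from 96 to 168 counts a library, was at 5.07, 4.57 and 4.63 CPM in Ctrl and at 6.94, 4.20 and 6.35 CPM in Sox2 cKO. Sox2 cKO library 3 was the lowest of all 6 and the other Sox2 cKO libraries were the highest. The log2 fold change of Trf was 0.29 ± 0.20 (SE, n = 3 per group, edgeR adjusted p = 0.307).

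Heph, the membrane-bound ferroxidase, was the member that fell. It was at 22.1, 26.3 and 25.5 CPM in Ctrl and at 14.9, 17.1 and 20.3 CPM in Sox2 cKO. The highest Sox2 cKO library lay below the lowest Ctrl library. Its log2 fold change was -0.50 ± 0.13 (SE, n = 3 per group, edgeR adjusted p = 0.0216), -0.51 in DESeq2 (adjusted p = 0.00413) and -0.38 ± 0.11 with the length correction (edgeR adjusted p = 0.0489). The call was lost in edgeR without Ctrl library 4 (adjusted p = 0.0939), Ctrl library 6 (0.0666), Sox2 cKO library 1 (0.0865) or Sox2 cKO library 3 (0.0711), and in DESeq2 without Ctrl library 4 (adjusted p = 0.0583). Heph lies on chromosome X at 96455359 to 96574485 (+) and shares 29 of its 7662 exonic bases with an opposite-strand gene, Hsf3.

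Hephaestin is known in mature oligodendrocytes, and markers of that cell type are therefore given beside it. Their summed level was 33743 to 37801 CPM in Ctrl and 34130 to 36669 CPM in Sox2 cKO, with 1 of 15 markers called higher and 0 lower by edgeR, 5 with an unadjusted p under 0.05, 5 called by DESeq2 and 4 called lower with the length correction. Mbp had a log2 fold change of 0.19 and Mobp one of -0.14, and neither was called. Markers of oligodendrocyte precursors were lower in 4 of 6 by edgeR, against 12.4% of all genes, and in 2 of 6 with the length correction, with a summed level of 165 to 186 CPM in Ctrl and 109 to 143 CPM in Sox2 cKO. The part of these cells in the Heph difference was not tested.

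Cp, the other ferroxidase, varied most between mice among the 10 genes. It was at 40.0, 47.9 and 23.1 CPM in Ctrl and at 62.8, 44.6 and 41.6 CPM in Sox2 cKO. The groups overlapped, with Ctrl library 6 far below and Sox2 cKO library 1 far above the others. Cp had a log2 fold change of 0.42 ± 0.23 (SE, n = 3 per group, edgeR adjusted p = 0.207). It was 0.18 without Ctrl library 6 and 0.22 without Sox2 cKO library 1, and DESeq2 called it without Ctrl library 4 (0.64, adjusted p = 0.0302). Ctrl library 6 was also the lowest of all 6 in the summed level of meningeal fibroblast markers (213 CPM against 466 to 614 CPM in the other 5), of which 0 of 7 were called by edgeR or DESeq2, and of Schwann cell markers (23.2 CPM against 45.3 to 67.2 CPM), of which 0 of 5 were called by either tool. In both lists 0 markers had an unadjusted edgeR p under 0.05. The part of meninges and roots in the Cp level was not tested.

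Slc40a1, the exporter itself, was at 8.21, 8.23 and 7.53 CPM in Ctrl and at 9.57, 8.02 and 8.65 CPM in Sox2 cKO. Sox2 cKO library 3 lay within the range of Ctrl. The log2 fold change was 0.13 ± 0.13 (SE, n = 3 per group, edgeR adjusted p = 0.491), and it rested on 156 to 235 counts a library.

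Both sensors lay lower in CPM in every Sox2 cKO library without passing the test, and in FPKM their groups overlapped. Aco1, which is an aconitase when it holds an iron-sulfur cluster and IRP1 when it does not, was at 48.0, 46.4 and 44.6 CPM in Ctrl and at 35.0, 42.4 and 39.4 CPM in Sox2 cKO. Its log2 fold change was -0.25 ± 0.09 (SE, n = 3 per group, edgeR adjusted p = 0.0679) and -0.21 ± 0.08 with the length correction (edgeR adjusted p = 0.113). Ireb2, IRP2, whose protein is degraded when iron is plentiful, was at 74.7, 74.0 and 69.9 CPM in Ctrl and at 60.5, 66.8 and 64.6 CPM in Sox2 cKO. Its log2 fold change was -0.19 ± 0.07 (SE, n = 3 per group, edgeR adjusted p = 0.0902) and 0.01 ± 0.07 with the length correction (edgeR adjusted p = 0.942). At 5808 bases Ireb2 is longer than 87.4% of the genes tested, and the median log2 fold change was -0.16 over the 4463 genes of 4000 to 8000 bases.

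**Figure D4:**
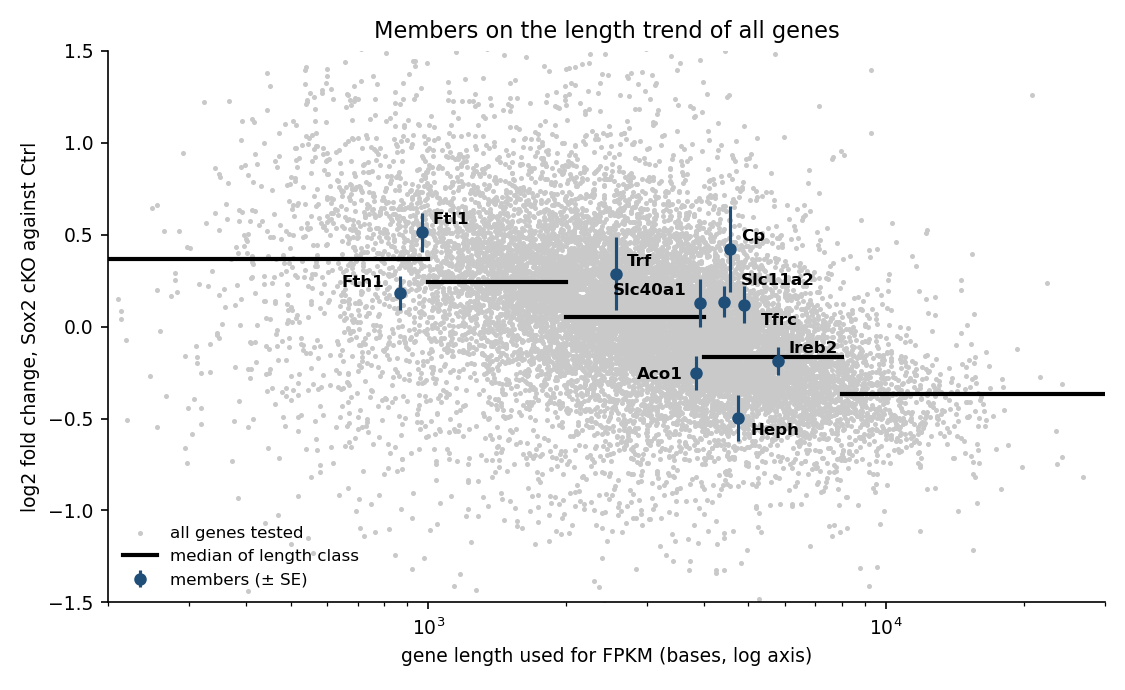
Log2 fold change (edgeR) of all 16137 genes tested against gene length on a log axis, with the median of each of 5 length classes as black lines and the 10 genes with their SE in blue. The medians fall from 0.37 in the shortest class to -0.37 in the longest, Ftl1 and Fth1 lie in the shortest class on either side of its median, Heph lies well below its class, and 98 genes beyond a log2 fold change of 1.5 in either direction are not drawn.

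Promoters were searched for ACAAAG, a core of the sequence SOX2 binds, on both strands (the reverse complement is CTTTGT) in RefSeq windows of 250 bases before to 50 bases after each start. Windows were given for 6 of the members, 9 windows in all. A match lay in 4 of the 9 windows, in Cp, Ireb2 and Fth1, and in 6147 of 32851 promoters (18.7%). The Cp windows overlap and share a site, so the windows are not independent of each other. The Fth1 match lay in the window at chr19:9980350-9980649, and the window at chr19:9982396-9982695 held 0 matches. Ireb2 was the only member named as nearest gene in the study's list of its strongest SOX2 sites. Those sites came from adult cerebral cortex and not from spinal cord, and the share of all genes on that list was not computed. A match of letters is not a bound site.

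The other genes of iron and heme handling were taken from 5 lists of 66 genes, of which 65 were in the tables and 60 passed the filter on low counts. Of these, 12 rose and 2 fell, or 23.3%, against the 24.6% of all genes given above, and 46 did not pass the test. Their median log2 fold change was 0.15, and 0.02 with the length correction, under which 7 were called. Without Ctrl library 4 or Sox2 cKO library 1, edgeR called 0 of them and DESeq2 called 8 and 9, and without Ctrl library 6 or Sox2 cKO library 3, edgeR called 6 each time.

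Mitochondrial iron and iron-sulfur cluster genes held most of the calls, with 8 of 19 higher, against 12.2% of all genes tested, and 1 lower, against 12.4%. Their median log2 fold change was 0.36, and 0.20 with the length correction. Iscu, the scaffold on which clusters are built, was at 119, 84.7 and 77.0 CPM in Ctrl and at 154, 155 and 140.1 CPM in Sox2 cKO (log2 fold change 0.68, edgeR adjusted p = 0.014). Isca2, which helps to mature a class of clusters, had a log2 fold change of 0.66 (edgeR adjusted p = 0.020), Fdx1, a ferredoxin, 0.60 (0.013), and Cisd1, an outer membrane cluster protein, 0.53 (0.012). The groups did not overlap for any of these 4 genes, and 22.6% of all genes tested also lay higher in every Sox2 cKO library. These 4 were named as called genes of large change, so their separation adds little. With the length correction, Iscu remained called (0.42, edgeR adjusted p = 0.035), while Isca2 (0.147), Fdx1 (0.190) and Cisd1 (0.0645) were not. The list then held 3 genes higher and 1 lower, while 13.1% of all genes tested were called in either direction. The median length of the list was 1515 bases, against 3060 bases for all genes tested.

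Of 16 heme genes, edgeR called 2, both higher, against 12.2% of all genes tested, and DESeq2 called 4. Their median log2 fold change was 0.24, and 0.04 with the length correction, under which 1 was called. Ppox, a late enzyme of heme synthesis, was at 13.9, 10.6 and 11.7 CPM in Ctrl and at 21.8, 20.7 and 16.9 CPM in Sox2 cKO (log2 fold change 0.72, edgeR adjusted p = 0.013), and its value with the length correction was 0.81 (0.018). Alas1, the first enzyme of the same pathway, had a log2 fold change of 0.35 (edgeR adjusted p = 0.041) and of 0.32 with the length correction (0.0565). Red blood cell markers, which share heme synthesis, were at a summed 58.1 to 167 CPM in Ctrl and 78.4 to 99.7 CPM in Sox2 cKO, and 0 of 6 tested were called by edgeR or DESeq2, or had an unadjusted p under 0.05.

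Among 12 uptake genes tested, 2 rose, against 12.2% of all genes tested, and the median log2 fold change was -0.08. Lcn2, a lipocalin that binds siderophore-held iron, was at 1.75, 0.748 and 1.01 CPM in Ctrl and at 17.6, 10.5 and 1.51 CPM in Sox2 cKO. Sox2 cKO library 5 lay within the range of Ctrl, so the mean rested on the other 2 Sox2 cKO libraries. The log2 fold change was 3.07 ± 0.72 (SE, n = 3 per group, edgeR adjusted p = 0.0176), and the call was lost in edgeR without Ctrl library 4, Ctrl library 6 or Sox2 cKO library 1 (adjusted p = 0.0820, 0.0552 and 0.0783) and in DESeq2 without those libraries or Sox2 cKO library 3 (adjusted p = 0.0749, 0.0638, 0.0893 and 0.0548). Without Sox2 cKO library 1 the log2 fold change of Lcn2 was 2.37 in edgeR. Neutrophil markers moved with it, with 6 of 7 called higher by edgeR, against 12.2% of all genes tested. With the length correction 4 were called higher, while 13.1% of all genes tested were called in either direction. None was at 0, and their summed levels were 20.8 to 28.3 CPM in Ctrl and 77.7, 80.2 and 32.8 CPM in Sox2 cKO libraries 1, 3 and 5. Neutrophils make lipocalin as well, and their part in the Lcn2 difference was not tested. Snx3, which sorts the transferrin receptor back to the cell surface, had a log2 fold change of 0.40 (edgeR adjusted p = 0.021) and of 0.13 with the length correction (0.234).

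Of 8 genes for iron chaperones, ferritin turnover and IRP control, edgeR called 1, which fell, against 12.4% of all genes tested, and DESeq2 called 2. The gene called by both was Herc2, a large ubiquitin ligase that acts on the ferritin turnover receptor, at 298, 419.6 and 378 CPM in Ctrl and 197, 238 and 238 CPM in Sox2 cKO (log2 fold change -0.70, edgeR adjusted p = 0.013). With 15342 bases it was among the longest genes, and its value with the length correction was -0.23 (edgeR adjusted p = 0.044). The other was that receptor, Ncoa4, with a log2 fold change of -0.31 in DESeq2 (adjusted p = 0.0424) and of -0.30 in edgeR (adjusted p = 0.0620). Of the 5 hepcidin axis genes tested, 0 were called by edgeR or DESeq2 and 1 had an unadjusted edgeR p under 0.05, their median log2 fold change was 0.14, and hepcidin (Hamp) did not pass the filter on low counts.

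**Figure D5:**
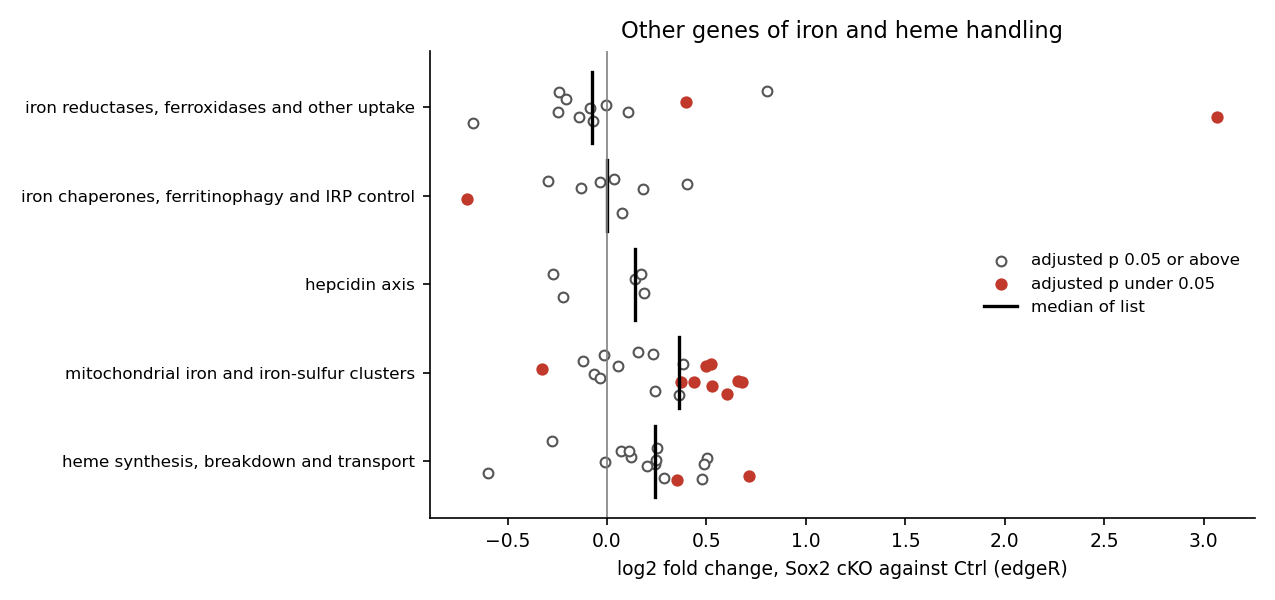
Log2 fold change (edgeR) of 60 further genes of iron and heme handling in 5 lists, filled where the adjusted p was under 0.05, with the list medians as black lines; vertical spread within a list has no meaning. The mitochondrial list has 8 filled points to the right of 0 and 1 to the left, and Lcn2 lies alone at 3.07.

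The genes whose log2 CPM was most like that of 3 members over the 6 libraries were listed by Pearson correlation among genes of at least 10 CPM, as a description with both groups and all library effects in it. For Ftl1 they were Fastk (0.9999), Selenom (0.999) and Rex1bd (0.999), for Tfrc Kcnj9 (0.994), Cybc1 (0.994) and Nipsnap3b (0.991), and for Trf Ttll3 (0.982), P2rx4 (0.978) and Drg1 (0.977). For Ftl1, 10124 genes were compared.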

How the data were processed

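The authors deposited raw counts per gene, made from single-end reads of poly(A) libraries with STAR 2.5 on mm10 and HTSeq 0.6.1, and FPKM derived from these counts by the authors with the gene length and library total. The library kit was directional, and the strand setting and overlap mode of the counting are not given in the sources used here. The deposited columns carry numbers and no sample names. Columns ending in 2, 4 and 6 were taken as Ctrl and in 1, 3 and 5 as Sox2 cKO, the mouse numbers of each group on the study's immunoblot. Group means of normalized counts that the study lists matched this map for 1999 of 1999 genes (relative tolerance 0.001), and for 0 with the groups exchanged. There were 0 other per-sample columns.

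The main test was that of edgeR 4.0.16 in R 4.3.3 (filterByExpr, TMM, quasi-likelihood test without covariates, Benjamini-Hochberg adjusted p under 0.05 over all genes tested). The biological coefficient of variation was 0.119. Standard errors came from the log2 fold change and its F statistic. Levels are TMM-scaled CPM within a gene and deposited FPKM between genes. Ratios were tested with exact permutation over 6 libraries. The length correction took a lowess curve (span 0.3) of log2 CPM (prior count 2) over log length in each library as an offset. Alternatives were DESeq2 1.42.0, RLE and upper quartile factors, no filter, at least 10 counts in every sample, limma 3.58.1 on log2(FPKM + 1) and log2(FPKM + 0.1) for genes with a mean of at least 0.5 FPKM, pseudogene rows added, and leaving out each library. The fits were tested on simulated data. Positions and transcripts came from GENCODE M21 (34490 of 35275 identifiers matched), promoters from RefSeq (GRCm38.p6).

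The members, lists and tests were chosen with earlier results of these data known. Named are the 10 members, Sox2, up to 5 called genes of largest change in each pathway list, marker genes among the 3 of highest level in each list, and the 3 genes most like Trf, Ftl1 and Tfrc. Some genes under this rule are not reported here. Gm20425, Hsf3, Alas2, Bola3, Ncoa4 and Hamp were named after their values were seen. Libraries come from separate mice, and no pair of a group differed by less than sampling noise (chi-square per degree of freedom 7.17 to 31.6).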

Additional observations from a re-analysis of the deposited data

How the results depend on the processing

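The number of genes called was 3970 and stayed within 1.5 times that under every setting that used all 6 libraries except the length correction, which gave 2109 genes, 1 member in place of 2 and 7 pathway genes in place of 14. Leaving out a library gave from 8 (edgeR, without Sox2 cKO library 1) to 6119 genes (edgeR, without Ctrl library 2), from 0 to 4 members and from 0 to 29 pathway genes. edgeR without Ctrl library 4 called 26 genes and 0 members, and DESeq2 without it called 1959 genes and 2 members. The log2 fold changes of Fth1 (-0.18) and Ireb2 (0.0091) reversed only with the length correction. The Fth1 to Ftl1 difference ranged from -0.39 to -0.25 and the Tfrc to Fth1 difference from -0.14 to -0.004 over libraries left out. Neither ratio was corrected for length. For Aco1, Ireb2, Slc11a2, Slc40a1 and Trf no setting gave a call. Under limma, Lcn2 was at 1.85 with FPKM + 1 (adjusted p = 0.0586) and 2.54 with FPKM + 0.1 (0.0525). The median log2 fold change of all genes was 0.02 in edgeR and 0.11 in limma on log2(FPKM + 0.1), so FPKM values lie higher by that shift. No paired analysis was possible because the columns carry no replicate numbers. Among the 10 members, counting depth limits Trf and Slc40a1 most, and Lcn2 had as few as 18 counts in a library.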
